A study of Mus musculus with 14 samples.

Results

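NF-kB is a family of dimeric transcription factors. The 10 genes described here encode its subunits (Nfkb1, Nfkb2, Rela, Relb and Rel) and proteins that act on it. Of the latter, Nfkbia, Nfkbib, Nfkbie and Tnfaip3 encode proteins that restrain it, and Nfkbiz encodes a nuclear IkB protein. The 10 genes were defined by gene symbol, with no measured value in the rule. Of these, 9 could be measured, out of 19155 genes with a probe set. Nfkb1 had no probe set in the annotation table and was not analysed here. Each of the other genes had 1 probe set.

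The data are 14 microarrays (Affymetrix Mouse Gene ST 1.0), and each carried amplified RNA of 20000 bone marrow cells purified by repeated sorting. All mice were wild-type C57BL/6 with no transgene or treatment, aged 8 to 10 weeks (young) or 24 months (old). MPP3, the myeloid-biased multipotent progenitors (Lin-, cKit+, Sca-1+, Flk2-, CD48+, CD150-), were on 3 young and 3 old arrays. MPP4, the lymphoid-biased ones (Lin-, cKit+, Sca-1+, Flk2+), were on 5 young and 3 old arrays. The young arrays had also been deposited in an earlier series, and whether animals were pooled was not given in the sources used here.

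In resting cells NF-kB dimers are held in the cytoplasm by IkB proteins. Signals from Toll-like, IL-1 and TNF receptors activate the IKK kinases, which mark IkB for destruction and let the dimers enter the nucleus. Several inhibitor genes are themselves NF-kB targets, so the pathway feeds back on itself, and in blood progenitors it is known for its part in inflammatory and emergency myelopoiesis. Transcript levels do not show where the protein is, so the values below are not a measure of NF-kB activity.

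Promoter sequences of the family are given first, since several of its genes are known targets of NF-kB. RefSeq promoters (GRCm38.p6, 250 bases before the start to 50 after it) were at hand for 7 of the measured genes, and Relb and Nfkbiz had none in the table. A 10-base kB consensus, searched on both strands of the 250 upstream bases, matched in 5 of these 7 genes (Nfkb2, Rel, Nfkbia, Nfkbie and Tnfaip3), against 3.90% of all 32851 promoters and 4.46% of 27025 genes. Rela and Nfkbib had no match in this window. One stretch per gene is shown because these are the genes whose levels are compared below, written 5′ to 3′ on the strand of the gene, with the bases that matched in capitals.
Rel, chr11:23771031-23771081, minus strand: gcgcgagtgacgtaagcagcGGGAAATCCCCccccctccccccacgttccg
Nfkb2, chr19:46304678-46304736, plus strand: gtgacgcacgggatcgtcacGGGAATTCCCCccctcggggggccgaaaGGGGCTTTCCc
Nfkbia, chr12:55492648-55492696, minus strand: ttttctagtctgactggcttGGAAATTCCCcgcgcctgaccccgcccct
Nfkbie, chr17:45555574-45555623, plus strand: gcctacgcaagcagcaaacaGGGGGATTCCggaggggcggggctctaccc
Tnfaip3, chr10:19015411-19015442, minus strand: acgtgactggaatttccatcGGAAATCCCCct
In Rel the capitals are a pair of overlapping matches at positions -92 to -82 from the annotated start. In Nfkbia the match lies at -29 to -20, in Nfkbie at -106 to -97 and in the shown stretch of Tnfaip3 at -12 to -3, while Nfkb2 has 3 matches between -39 and -2 of the start shown. A match is a description of the sequence and shows no binding. Of the other pathway genes with a promoter in the table, the consensus matched in 9 of 21 target genes and in 8 of 42 genes that act upstream of NF-kB or on it.

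The values are a score: the authors' RMA values mapped by rank onto an exponential scale, so that a value is the negative natural log of the fraction of probe sets that rank at least as high. The mean of Rel over all arrays, 2.79, thus means that 6.16% of probe sets lay at or above it. Differences are given in these units and are not folds, and levels of different genes are not set against each other. All genes here except Relb lay above the dimmest 33.3% of genes by mean value.

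Array medians lay between 0.662 and 0.675 and correlations between arrays between 0.948 and 0.994. The sorting marker Flt3, the gene of Flk2, averaged 2.13 and 1.79 in young and old MPP3 and 3.12 and 3.40 in young and old MPP4, with no overlap between populations. Of the other genes of the sort gate, Cd48 and Kit were lower in old MPP3 without overlap (-0.2275 ± 0.0690 and -0.205 ± 0.107, SE, adjusted p = 0.549 and 0.667). Neither had an adjusted p under 0.05, and 14.2% of all genes did not overlap in this comparison. In MPP4 Cd48 was instead higher in old mice, with overlap (0.291 ± 0.114, adjusted p = 0.489). Cd48 was also higher in MPP4 than in MPP3 of old mice without overlap (0.200 ± 0.0619, adjusted p = 0.407), where 16.6% of all genes did not overlap. In young mice Cd48 averaged 2.30 in MPP4 and 2.62 in MPP3. Slamf1 overlapped between ages in MPP3. From the dimmest 33.3% of probe sets, the arrays fell into 2 sets, which no label explains. Array set 1 held all 6 old arrays and 3 young ones (replicate 1 of MPP3 and replicates 1 and 2 of MPP4), and array set 2 held the other 5 young arrays. Xist exceeded 1 on 4 young arrays (MPP3 replicate 1 and MPP4 replicates 1, 4 and 5) and on no old array. Age was thus partly confounded with array set and with Xist signal, and the study's methods state that mice of both sexes were used. An age difference and a difference between array sets cannot be told apart beyond the comparisons within set 1 given below. In MPP3 the only young array of set 1, replicate 1, had Xist above 1. Age and Xist signal therefore cannot be told apart there either. In sorted bulk samples a smaller number of cells expressing a gene and less RNA per cell also cannot be told apart.

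Of the 9 genes, Rel was the one whose groups stood apart most, and it did so between populations and not between ages. The range of its 4 group means was 2.98 times the SD within groups, while for the other 8 genes it was between 0.796 times (Rela) and 1.87 times (Nfkbie). No gene of the family passed the threshold in any of the 5 main comparisons, which were old against young in each population, MPP4 against MPP3 at each age, and the difference between the age differences.

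**Figure D1:**
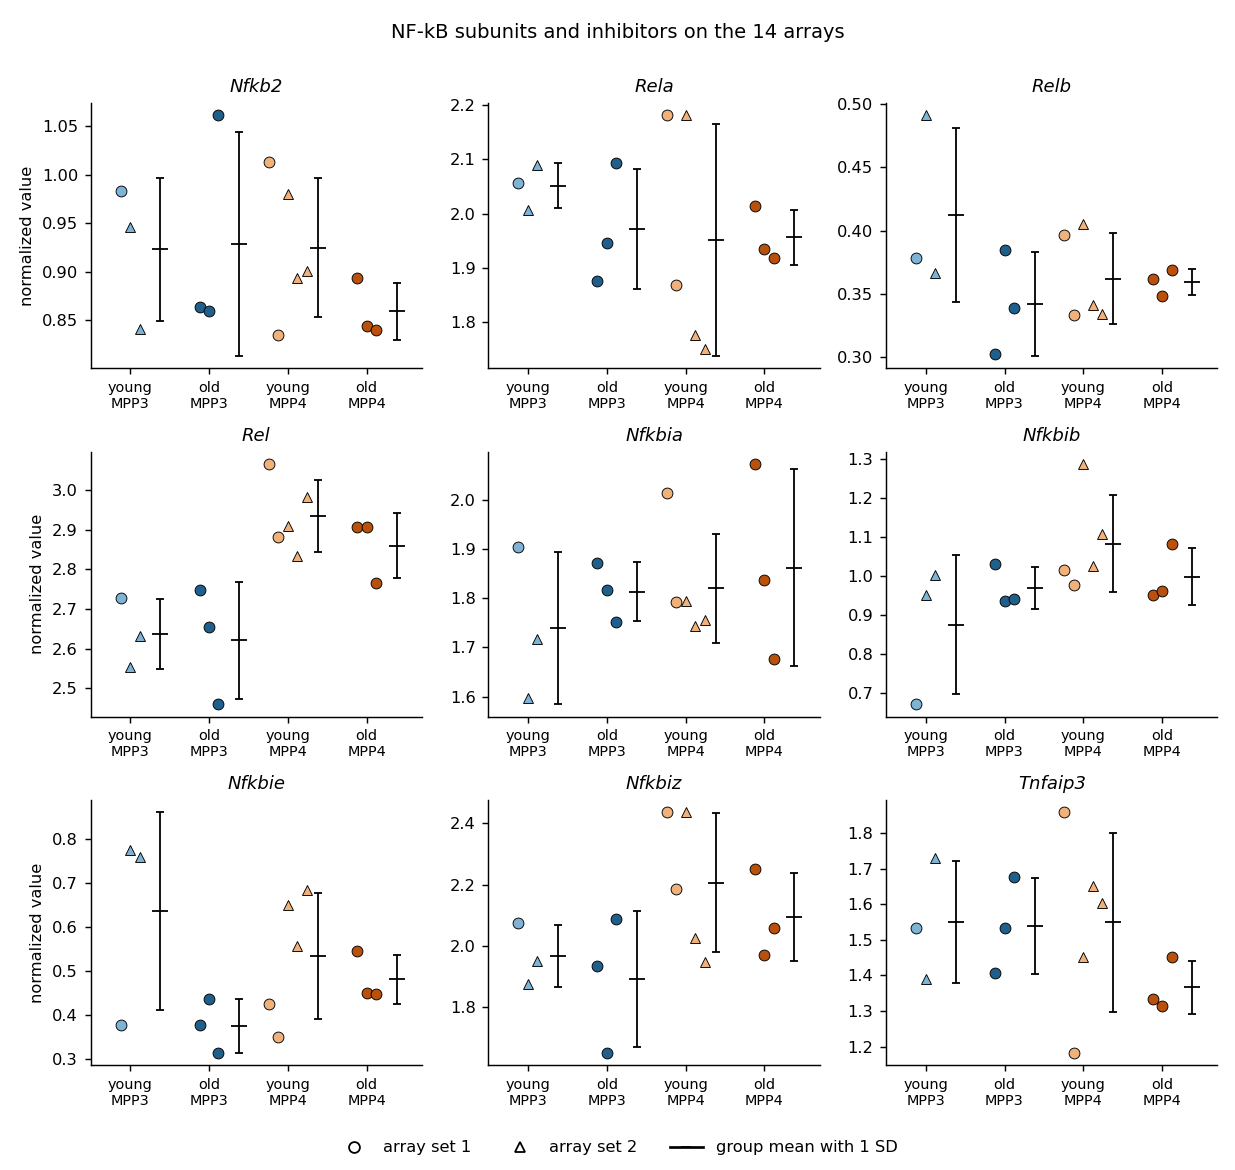
Normalized value (vertical axis, a different range in each panel and none starting at 0) of the 9 measured genes on each of the 14 arrays, by group. Circles are arrays of set 1, triangles arrays of set 2, and bars show the group mean with 1 SD. Rel is the only panel in which all 8 MPP4 arrays (2.77 to 3.07) lie above all 6 MPP3 arrays (2.46 to 2.75), and in the Nfkbie panel the triangles lie above the circles.

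Among the subunits, Rel encodes c-Rel, the subunit best known from lymphocytes (chr11:23736847-23770969). It measured 2.73, 2.55 and 2.63 on the young MPP3 arrays and 2.75, 2.65 and 2.46 on the old MPP3 arrays. On the young MPP4 arrays it measured 3.07, 2.88, 2.91, 2.83 and 2.98, and on the old MPP4 arrays 2.91, 2.91 and 2.77. The order of the group means was young MPP4 (2.94 ± 0.0912, SD, n = 5), old MPP4 (2.86 ± 0.0818, n = 3), young MPP3 (2.64 ± 0.0876, n = 3) and old MPP3 (2.62 ± 0.148, n = 3). Neighbours of different age within a population differed by less than their SDs, and the step between the populations was larger than any of the SDs.

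Rel was higher in MPP4 by 0.297 ± 0.0615 (SE) in young mice (adjusted p = 0.156) and by 0.239 ± 0.0867 in old mice (adjusted p = 0.481), without overlap at either age. Neither difference passed the threshold, and the latter was 0.158 without old MPP3 replicate 3. Of all genes, 0.131% passed it in young mice and 0% in old mice (9.83% at an unadjusted p of 0.05), and 7.47% and 16.6% did not overlap, so a lack of overlap at one age alone is common on so few arrays. The 95% confidence intervals, not adjusted for the number of genes, were 0.153 to 0.441 in young and 0.0196 to 0.459 in old mice. The difference between the ages in this contrast was -0.0583 ± 0.107 (adjusted p = 0.975), where 0% of all genes passed and 6.26% reached an unadjusted p of 0.05.

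The averaged comparison of MPP4 with MPP3 over both ages was added after the data had been seen. There Rel was higher in MPP4 by 0.268 ± 0.0537 (SE, 95% confidence interval 0.151 to 0.386), with an adjusted p of 0.0448, just past the threshold of 0.05. It was the only one of the 9 genes to pass, and 0.981% of all genes did so. The lowest of the 8 MPP4 arrays (2.77) lay above the highest of the 6 MPP3 arrays (2.75), by a narrow margin, and 0.465% of all genes were higher in MPP4 without overlap. Within array set 1 the difference was 0.247 in young mice (1 against 2 arrays) and 0.239 in old mice, and within array set 2 it was 0.316 (2 against 3 arrays). With array set as a term it was 0.265 ± 0.0519 (adjusted p = 0.0272).

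The size of the Rel difference held better than the call. Leaving out each array in turn gave differences from 0.228 to 0.300 and adjusted p-values from 0.0309 to 0.113, and the call held when replicate 1 of young MPP3, of old MPP3 or of young MPP4 was left out, and was lost in the other 11 of 14 cases. It was also lost in 4 of the 8 other settings: on normal scores of the ranks (adjusted p = 0.0795), with the replicate number as a block (0.0830), on arrays without Xist signal (0.138) and on array set 1 only (0.332).

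**Figure D2:**
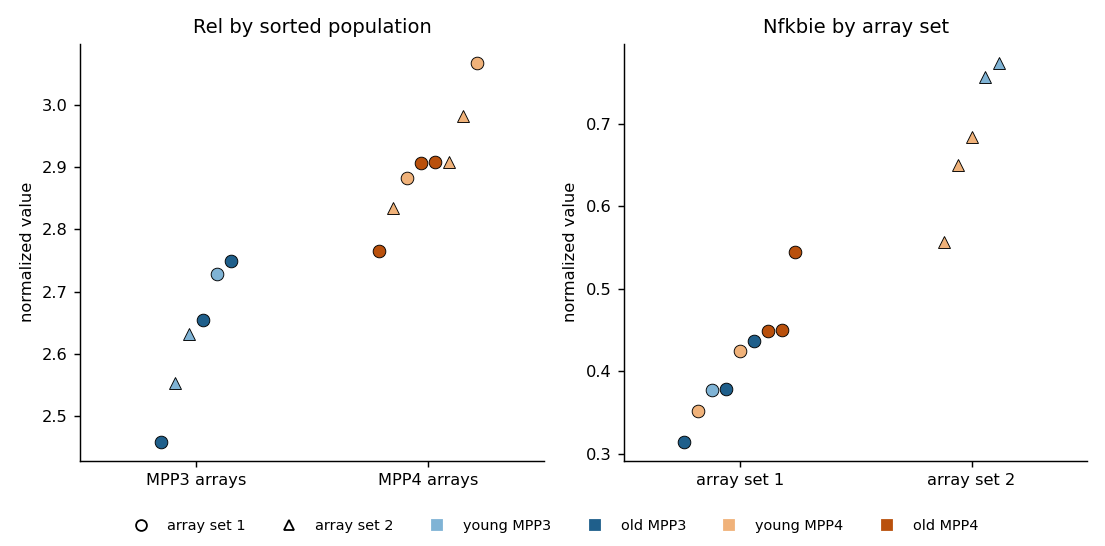
Normalized value (vertical axes, not starting at 0) of Rel on the MPP3 and MPP4 arrays (left) and of Nfkbie on the arrays of set 1 and set 2 (right), with 1 point per array, spread sideways in order of value. Each gene separates its 2 columns without overlap: Rel at 2.75 against 2.77 and Nfkbie at 0.545 against 0.556.

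Markers of other cells moved with this contrast. Of 8 myeloid progenitor genes, 5 were lower in MPP4 over both ages (Mpo, Elane, Ctsg, Ms4a3 and Fcgr3), and the mean of the list lay between 1.51 and 3.07 on MPP3 arrays and between 0.977 and 1.24 on MPP4 arrays. Of 11 mature neutrophil genes 2 were lower (S100a8 and S100a9). None of 10 monocyte and macrophage, 8 B cell, 9 T and NK cell or 4 erythroid genes passed. The B cell mean lay between 0.647 and 1.31 in MPP3 and between 0.586 and 1.05 in MPP4. All 8 B cell and all 10 monocyte and macrophage genes had lower means in MPP4 over both ages, against 52.7% of all genes. Of 6 lymphoid priming genes Dntt, the terminal transferase of lymphoid precursors, was higher (by 1.69 ± 0.206). Means of this list were higher in MPP4 for 5 of 6 genes over both ages but for 3 of 6 in young mice. There Il7r averaged 0.463 in MPP4 against 0.882 in MPP3. The part of these cells or programs in the Rel difference was not tested.

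Rela encodes p65, the transactivating subunit of the canonical pathway (chr19:5637442-5648134), and its group means spanned only 0.0997. It averaged 2.05 ± 0.0415 in young MPP3, 1.97 ± 0.111 in old MPP3, 1.95 ± 0.215 in young MPP4 and 1.96 ± 0.0515 in old MPP4. The 5 young MPP4 arrays varied most, at 2.18, 1.87, 2.18, 1.78 and 1.75, and these values cover all those of the other groups. The difference of old from young MPP3 was -0.0797 ± 0.0634 and did not pass (adjusted p = 0.770).

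Nfkb2 encodes p100, which is cut to p52 in the non-canonical pathway (chr19:46300994-46312400), and Relb encodes the usual partner of p52 (chr7:19606217-19629438). Nfkb2 averaged 0.923 ± 0.0736 in young MPP3, 0.928 ± 0.115 in old MPP3, 0.925 ± 0.0715 in young MPP4 and 0.859 ± 0.0296 in old MPP4. The group means spanned only 0.0691, less than the SD within groups, and MPP4 and MPP3 of young mice differed by 0.00130 ± 0.0502. Relb, on a dim probe set, ranged from 0.302 (old MPP3 replicate 1) to 0.491 (young MPP3 replicate 2). Its mean was 0.412 ± 0.0687 in young MPP3, 0.342 ± 0.0411 in old MPP3, 0.362 ± 0.0359 in young MPP4 and 0.360 ± 0.0102 in old MPP4. No comparison of these 2 genes had an adjusted p under 0.530.

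Of the inhibitors, Nfkbie (IkB-epsilon, chr17:45555700-45563169) was the one gene of the family whose values separated by array set. It measured 0.378, 0.774 and 0.757 on the young MPP3 arrays and 0.378, 0.437 and 0.315 on the old ones. On the MPP4 arrays it measured 0.425, 0.352, 0.650, 0.556 and 0.684 in young and 0.545, 0.450 and 0.449 in old mice. All 5 arrays of set 2 (0.556 to 0.774) lay above all 9 of set 1 (0.315 to 0.545), as did 2.58% of all genes. A further 4.35% of all genes were lower in set 2 without overlap, so such a separation was not particular to Nfkbie.

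The largest age difference of the family in MPP3 was that of Nfkbie, which was lower in old mice by -0.260 ± 0.118 with overlap of the groups (adjusted p = 0.641). Within array set 1, where 1 young array faced 3 old ones, the difference was -0.00139. In MPP4 it was -0.0520 ± 0.0810 over all arrays (adjusted p = 0.873) and 0.0931 within array set 1 (2 against 3 arrays). Between the populations of old mice, whose arrays were all in set 1, Nfkbie was higher in MPP4 without overlap by 0.105 ± 0.0449 (adjusted p = 0.544). The confidence interval of this difference ran from -0.00875 to 0.218. The lowest old MPP4 array (0.449) lay narrowly above the highest old MPP3 array (0.437). Of all genes, 16.6% did not overlap in this comparison. In young mice Nfkbie was lower in MPP4 by -0.103 ± 0.116 (adjusted p = 0.833). The difference between these differences was 0.208 ± 0.145 (adjusted p = 0.879).

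Nfkbia encodes IkB-alpha, the inhibitor resynthesized fastest after NF-kB activation (chr12:55489409-55492647). It measured 1.90, 1.60 and 1.72 in young MPP3 and 1.87, 1.82 and 1.75 in old MPP3. In MPP4 it measured 2.01, 1.79, 1.79, 1.74 and 1.76 on the young arrays and 2.07, 1.84 and 1.68 on the old ones. In each group replicate 1 was the highest array, and the groups overlapped in every comparison. Replicates of one number in different groups were not paired by the labels. Old exceeded young by 0.0738 ± 0.0861 in MPP3 (95% confidence interval -0.144 to 0.292) and by 0.0421 ± 0.0978 in MPP4 (-0.187 to 0.271), and neither passed (adjusted p = 0.852 and 0.922). Within array set 1 both differences were below 0, at -0.0914 and -0.0414.

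Nfkbib, the gene of IkB-beta (chr7:28758251-28766644), was lowest on young MPP3 replicate 1 (0.671) and highest on young MPP4 replicate 3 (1.29). Its group means ran from 0.875 ± 0.179 in young MPP3 through 0.970 ± 0.0537 in old MPP3 and 0.999 ± 0.0731 in old MPP4 to 1.08 ± 0.125 in young MPP4. The young populations differed by 0.208 ± 0.0969 (adjusted p = 0.504) with overlap, and the old ones by 0.0287 ± 0.0489 (adjusted p = 0.890). The lowest array decided much of the first value: without young MPP3 replicate 1 the young populations differed by 0.106 ± 0.0854.

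Nfkbiz encodes IkB-zeta, a nuclear IkB protein that acts on NF-kB at promoters and can raise transcription (chr16:55811375-55838954). It measured 2.08, 1.87 and 1.95 in young MPP3 and 1.93, 1.65 and 2.09 in old MPP3. In MPP4 it measured 2.44, 2.19, 2.44, 2.02 and 1.95 in young and 2.25, 1.97 and 2.06 in old mice. Its means stood in the same order as those of Rel, but the populations overlapped at both ages. The difference of MPP4 from MPP3 was 0.240 ± 0.130 in young mice (adjusted p = 0.573), 0.203 ± 0.134 in old mice (adjusted p = 0.675) and 0.221 ± 0.0991 over both ages (95% confidence interval 0.00401 to 0.439, adjusted p = 0.367). In old mice it was 0.0823 without old MPP3 replicate 2 and 0.124 without old MPP4 replicate 1. The values over all arrays did not pass the threshold, and their intervals allow a difference as large as that of Rel.

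Tnfaip3 encodes A20, a ubiquitin-editing enzyme that ends signalling upstream of IKK (chr10:19000910-19015410). It averaged 1.55 ± 0.172 in young MPP3, 1.54 ± 0.135 in old MPP3, 1.55 ± 0.252 in young MPP4 and 1.37 ± 0.0756 in old MPP4. Young MPP4 spread from 1.18 (replicate 2) to 1.86 (replicate 1), the lowest and the highest of all 14 arrays. Old MPP4, at 1.33, 1.31 and 1.45, lay within that range, and the differences of old MPP4 from young MPP4 (-0.183 ± 0.139, adjusted p = 0.696) and from old MPP3 (-0.172 ± 0.0799, adjusted p = 0.572) did not pass. Both moved by over 1.5 times with single arrays. The first was -0.275 without young MPP4 replicate 2, -0.106 without young MPP4 replicate 1 and 0.0489 on arrays without Xist signal, and the second was -0.103 without old MPP3 replicate 3.

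The study's question of age can be read over all 9 genes. In both MPP3 and MPP4 the old and young arrays overlapped for all 9. Of all genes, 14.2% in MPP3 and 7.29% in MPP4 did not overlap. No gene of the family reached an unadjusted p of 0.05, which 8.19% of all genes did in MPP3 and 9.77% in MPP4. With only 9 genes, shares this small do not set the family apart from all genes. In both populations 0% of all genes passed the adjusted threshold by limma. A SAM-type statistic, like that of the study's methods, called 0 genes in MPP3 and 21 in MPP4, none of them in the family. The mean was lower in old mice for 6 of 9 genes in MPP3 and 7 of 9 in MPP4, against 49.9% and 50.2% of all genes. The median difference was -0.0168 and -0.0654, beside 1.83e-04 and -1.71e-04 over all genes.

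Averaged over both populations, a comparison added after the data had been seen, none of the 9 genes passed, against 0.0418% of all genes. All 9 confidence intervals included 0, and the widest difference was that of Nfkbie (-0.156 ± 0.0725, 95% confidence interval -0.315 to 0.00303, adjusted p = 0.379). For Rel the interval ran from -0.164 to 0.0717, for Rela from -0.205 to 0.130 and for Nfkbia from -0.0964 to 0.212. Differences between ages within these bounds could not be told from 0 with this number of arrays. Immediate early and heat shock genes, which respond to cell handling, had lower means in old mice for 20 of 25 genes in MPP3 and 21 of 25 in MPP4, with none past the threshold. Their mean lay between 1.71 and 1.89 in young and 1.501 and 1.76 in old MPP3, and between 1.64 and 1.99 in young and 1.69 and 1.74 in old MPP4, and in MPP3 markers of other cells moved with age as well. Old MPP3 arrays lay above young ones without overlap in the mean of 11 mature neutrophil genes (0.769 to 1.15 against 0.513 to 0.688), of 10 monocyte and macrophage genes (0.722 to 0.849 against 0.568 to 0.649) and of 9 T and NK cell genes (0.629 to 0.672 against 0.546 to 0.628, although 5 of the 9 had lower means in old MPP3). Myeloid progenitor genes had higher means in old MPP3 for 8 of 8 (1.93 to 3.07 against 1.51 to 2.09) and lymphoid priming genes lower means for 5 of 6 (0.863 to 1.27 against 1.15 to 1.37). B cell genes had lower means in old MPP3 for 7 of 8, with list means that overlapped (0.647 to 1.31 against 0.651 to 1.22). In MPP4 the ranges of these lists overlapped between ages, and no marker passed the threshold in either population. The part of any of these lists in the age differences of the family was not tested.

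**Figure D3:**
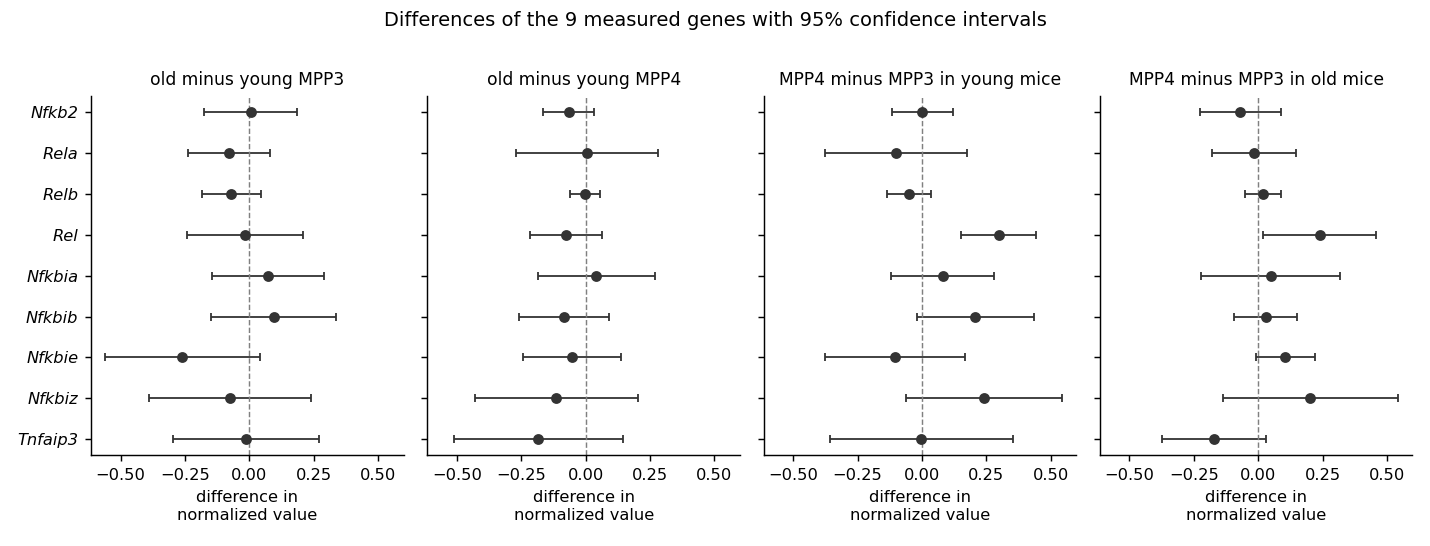
Difference in normalized value (horizontal axis) for the 9 measured genes in 4 comparisons, with points for the estimate and bars for the 95% confidence interval, not adjusted for the number of genes. The dashed line marks 0. All bars of both age comparisons cross it, and Rel is the only gene whose bar lies above it in both comparisons of MPP4 with MPP3.

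Single arrays were high or low for several of the 9 genes at once, and co-movement was not tested. Within young MPP4, replicate 1 was the highest array for 5 of the 9 (Nfkb2, Rela, Rel, Nfkbia and Tnfaip3) and replicate 2 the lowest for 5 (Nfkb2, Relb, Nfkbib, Nfkbie and Tnfaip3). Within old MPP4, replicate 1 was highest for 5 and replicate 3 lowest for 5, and within young MPP3 replicate 2 was lowest for 5. The mean of the 9 genes lay between 1.38 and 1.60 in young MPP4, between 1.40 and 1.48 in old MPP4, between 1.40 and 1.45 in young MPP3 and between 1.36 and 1.41 in old MPP3. These ranges all overlap.

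By the mean absolute difference of values centred and scaled to an SD of 1 over the 14 arrays, the genes most like Rel were St3gal2 (0.259), Igf2r (0.333) and Zbtb21 (0.343), beside a median of 1.07 over all genes. St3gal2 lay between 0.795 and 1.05 in MPP3 and between 1.06 and 1.42 in MPP4, without overlap, while Zbtb21 overlapped (up to 1.16 in MPP3 and from 1.10 in MPP4). Genes like a member were picked on these same arrays, so a shared pattern follows from the choice. The genes most like Nfkbie were Gbx1 (0.241), Macc1 (0.286) and Mycbpap (0.296), and each of them, like Nfkbie, was higher on every array of set 2. Those most like Nfkbiz were Znrf1 (0.329), Max (0.365) and Mmp2 (0.379).

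Around these genes, 73 of the other pathway genes listed had a probe set. None passed the threshold in either age comparison, in MPP4 against MPP3 of old mice or in the difference between age differences, and 1 (Ccl3) passed in young mice, where 0.131% of all genes did. Over both ages 4 were higher in MPP4 and 1 was lower, against 0.981% of all genes called in either direction, and these sat on the inhibitory and the output side of the pathway as well as among the adaptors.

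Of the 28 target genes measured, Ccl3 and Tnf were higher in MPP4. Ccl3, an inflammatory chemokine, lay between 0.807 and 1.43 (median 0.944) on the MPP3 arrays and between 2.42 and 2.90 (median 2.57) on the MPP4 arrays. It was higher by 1.63 ± 0.0789 in young mice (adjusted p = 7.53e-04), by 1.59 ± 0.202 in old mice (adjusted p = 0.203) and by 1.61 ± 0.104 over both ages (adjusted p = 7.49e-05). The call in young mice was lost with the replicate number as a block (adjusted p = 0.388), on arrays without Xist signal (0.208) and on array set 1 only (0.620), and that over both ages on array set 1 only (0.0981). The cytokine gene Tnf lay between 0.685 and 1.08 (median 0.851) in MPP3 and between 1.04 and 1.42 (median 1.25) in MPP4, with a difference of 0.389 ± 0.0639 over both ages (adjusted p = 0.0179). With this gene leaving out single arrays mattered: the call was lost without young MPP3 replicate 2 (adjusted p = 0.0513), old MPP4 replicate 1 (0.0580) or old MPP4 replicate 2 (0.0542). In MPP3 Tnf had a larger mean in old than in young mice without overlap (0.248 ± 0.0570), which did not pass (adjusted p = 0.493). Ptgs2, the gene of COX-2, was lower in old MPP3 by -0.540 ± 0.194 (adjusted p = 0.576).

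Of 11 genes of the linear ubiquitin ligase and the deubiquitinases with their binding partners, Tnip3, whose product binds A20, was higher in MPP4 over both ages by 0.668 ± 0.0747 (adjusted p = 0.00257), and all 8 MPP4 arrays (0.905 to 1.67) lay above all 6 MPP3 arrays (0.487 to 0.827). Tnfaip3 itself, the gene of A20, differed by -0.0871 ± 0.0980 in the same comparison (adjusted p = 0.772). Tnip3 was also higher in old than in young mice without overlap, by 0.194 ± 0.0691 in MPP3 and 0.505 ± 0.113 in MPP4, and neither passed (adjusted p = 0.576 and 0.323). Of all genes, 14.2% in MPP3 and 7.29% in MPP4 did not overlap between ages. Within array set 1 Tnip3 averaged 0.583 in young (1 array) and 0.758 in old MPP3. In MPP4 of that set it averaged 1.19 in young (2 arrays) and 1.58 in old mice. Tax1bp1, another partner of A20, was higher in old MPP3 by 0.215 ± 0.0367 (adjusted p = 0.471). In MPP4 it averaged 2.83 in young and 3.05 in old mice. Averaged over both populations it was higher in old mice without overlap by 0.219 ± 0.0845, as were 0.235% of all genes, and did not pass (adjusted p = 0.297).

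Of 11 adaptors, Irak3, a kinase-like brake on Toll-like and IL-1 receptor signalling, was lower in MPP4 over both ages by -0.586 ± 0.112 (adjusted p = 0.0362), at 1.21 to 1.73 (median 1.33) against 1.65 to 2.30 (median 2.01) in MPP3. Birc3, a ubiquitin ligase of the TNF receptor complex, was higher by 0.285 ± 0.0566 (adjusted p = 0.0437), at 1.46 to 1.80 (median 1.63) against 1.23 to 1.55 (median 1.29). Leaving out single arrays ended the call of Irak3 in 9 of 14 cases (adjusted p up to 0.0995) and that of Birc3 in 11 of 14 (up to 0.107), while Tnip3 and Ccl3 passed in all 14. Over both ages the calls of Tnip3, Tnf, Irak3 and Birc3 were each lost with the replicate number as a block (adjusted p from 0.143 to 0.337), on arrays without Xist signal (0.0626 to 0.256) and on array set 1 only (0.110 to 0.302). Irak3 kept its call without young MPP3 replicate 3, old MPP3 replicate 3, young MPP4 replicates 1 or 2 or old MPP4 replicate 2, and Birc3 without young MPP3 replicate 2 or young MPP4 replicates 1 or 2.

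**Figure D4:**
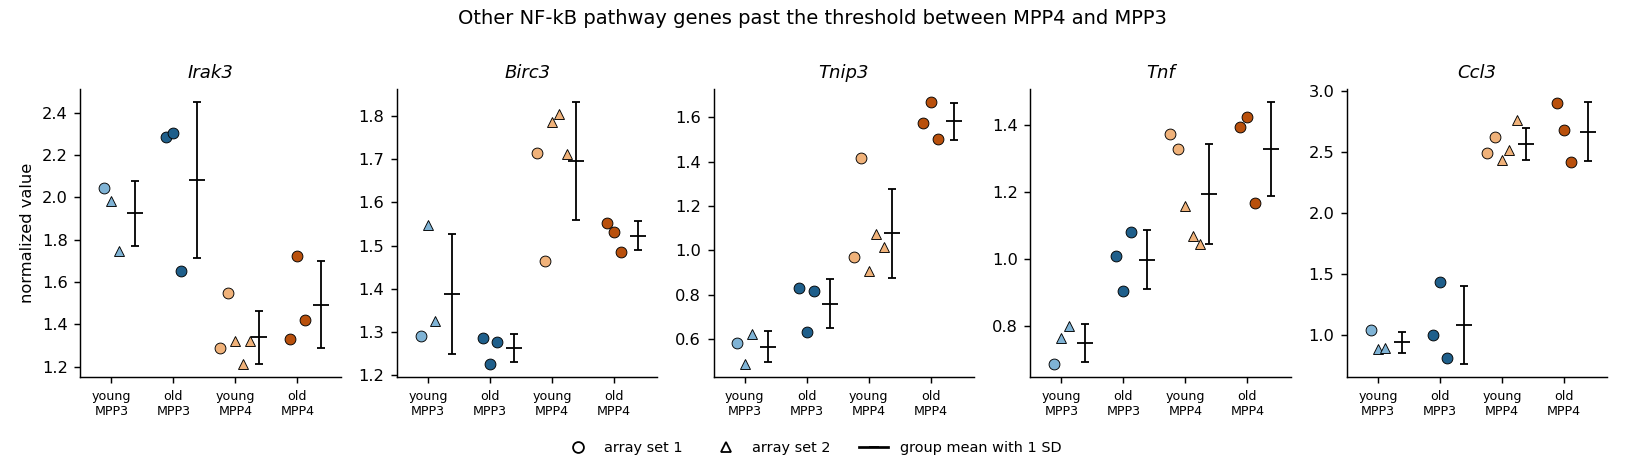
Normalized value (vertical axis, a different range in each panel and none starting at 0) of the 5 other pathway genes past the threshold between MPP4 and MPP3 over both ages, on each array by group. Circles are arrays of set 1, triangles arrays of set 2, and bars show the group mean with 1 SD. Ccl3 and Tnip3 separate the populations without overlap, and Irak3 is the only one of the 5 that is lower in MPP4.

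None of the 10 receptors, 10 kinases or 3 other IkB family genes measured passed in any comparison. Among receptors, Tlr4 was higher in MPP4 of young mice without overlap by 0.215 ± 0.0841 (adjusted p = 0.414), where 7.47% of all genes did not overlap. In old mice Tlr4 averaged 0.528 in MPP4 and 0.465 in MPP3, with overlap. Among kinases, Map3k8, which p105 holds inactive, came closest over both ages at 0.217 ± 0.0478 (adjusted p = 0.0603). Ikbkb, the gene of IKK-beta, was lower in MPP4 of young mice by -0.238 ± 0.0618 (adjusted p = 0.238). In old mice Ikbkb averaged 1.24 in MPP4 and 1.25 in MPP3. Of the other IkB family, Nfkbid was lower in old mice in both populations (-0.402 ± 0.178 in MPP3 and -0.222 ± 0.0851 in MPP4), as was Bcl3 in MPP3 (-0.190 ± 0.0524), with adjusted p-values of 0.636, 0.482 and 0.511. The comparisons of one group with others share its arrays, so their values are not independent.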

How the data were processed

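The authors normalized the arrays with RMA (version not given in the sources used here) and mapped each array by quantiles onto an exponential reference. The deposited values are therefore a score that carries rank, and 92.3% of them were whole ranks of 25307 probe sets within 0.01. Of 22115 probe sets, 2135 not listed in the platform annotation and 744 with several symbols were left out. For 76 genes with several probe sets the one with the highest mean was used, which left 19155 genes, and 71 probe sets had no RefSeq match. Models were fitted with limma 3.58.1 (lmFit and eBayes, R 4.3.3), with two-sided p-values adjusted by Benjamini-Hochberg for all genes tested and called under 0.05. Age comparisons used the arrays of 1 population, population comparisons those of 1 age, and the difference between age differences and the averaged comparisons all 14 arrays. The procedure was tested on simulated data. Precision is limited by the number of arrays, which the study's methods describe as biological replicates.

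The genes described, the pathway and marker lists, the tests and the other settings were chosen with earlier results of these data known. The averaged comparisons and the setting of array set 1 only were added later still, after the values used here had been seen. Named were the 9 measured genes, pathway genes past the threshold, up to 2 per list and comparison with the largest moderated statistic, of which the text gives a part, and the 3 genes most like each of the 3 members with the widest range of group means. The study's methods used SAM, so a SAM-type statistic was run for the age comparisons. Replicate numbers were checked for pairing by the correlation of same-numbered arrays' deviations from their group means. Figures were drawn with Python 3.11.15 and matplotlib 3.10.9.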

Additional observations from a re-analysis of the deposited data

Results flagged for a closer look

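Nfkbia in young MPP4 had 1 array far from the rest: replicate 1, at 2.01, lay above the other 4 arrays, which lay between 1.74 and 1.79. It was the only one of 9 gene and group pairs tested for an outlying array that stood out (groups of 3 arrays were not tested), and chance gives about 1 in 20 such groups. The same array was the highest of its group for 5 of the 9 genes. Without it, the difference of Nfkbia between old and young MPP4 was 0.0906, beside 0.0421 with it, and the difference between MPP4 and MPP3 in young mice was 0.0320, beside 0.0805.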

How the results depend on the processing

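The 45 differences of the 9 genes in the 5 main comparisons were recomputed under the other settings, which gave 751 values. None of these passed the threshold (lowest adjusted p 0.0634), 19 of the 45 differences kept their sign throughout, and 26 changed it under at least 1 setting. The number of arrays and the signal of dim probe sets such as that of Relb limit what could be detected.

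Over both ages, Rel was the 1 gene of the family called, and the count was 0 with normal scores, the replicate block, the arrays without Xist signal or array set 1 only, and 0 to 1 without single arrays. With the replicate block Rel differed by 0.277 (adjusted p = 0.0830) and Ccl3 in young mice by 1.58 (adjusted p = 0.388). The numbers were not treated as pairing the arrays, because the labels give no pairing. Correlations of same-numbered arrays between the young populations were 0.407, -0.148 and 0.178, and between the old ones 0.0485, 0.00773 and -0.0428. Those of differently numbered arrays (replicates 1 to 3) lay between -0.343 and 0.221 in young and between -0.1075 and 0.105 in old mice. Array set was not accounted for, and replicates 2 of the young populations lay in different sets, so these values do not decide whether arrays were paired. On array set 1 only, the difference of Rel was 0.243 (adjusted p = 0.332). The call of Birc3 over both ages was also lost with a variance trend and robust estimation (adjusted p = 0.0553).

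The number of all genes called depended strongly on the setting. For old minus young MPP3 (0) it was 9 in 1 fit of all groups, 1 with array set as a term and 1 on array set 1 only, and 0 without any single array. For old minus young MPP4 (0) it was 21 with the SAM-type statistic, 1 in 1 fit of all groups and 0 to 15 without single arrays. For MPP4 minus MPP3 in young mice (25) it was 48 with a variance trend and robust estimation, 59 without the dimmest 33.3% of genes, 51 with normal scores, 271 with array set as a term, 0 with the replicate block, 0 on arrays without Xist signal, 0 on array set 1 only and 8 to 108 without single arrays. In old mice (0) it was 27 in 1 fit of all groups, 1 without the dimmest 33.3% of genes, 2 with normal scores and 0 to 3 without single arrays. For the difference between age differences (0) it was 2 with a variance trend and robust estimation and 0 to 10 without single arrays. For MPP4 minus MPP3 over both ages (188) it was 285 without the dimmest 33.3% of genes, 600 with array set as a term, 4 with the replicate block, 41 on arrays without Xist signal, 0 on array set 1 only and 79 to 327 without single arrays. For old minus young over both populations (8) it was 4 with a variance trend and robust estimation, 2 without the dimmest 33.3% of genes, 3 with normal scores, 22 with array set as a term, 0 with the replicate block, 3 on arrays without Xist signal, 0 on array set 1 only and 1 to 119 without single arrays. The cause was not tested, except that the last settings use fewer arrays. Array set as a term was not run for MPP4 minus MPP3 in old mice, whose arrays were all in set 1. The setting of array set 1 only was chosen after seeing the data.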
